A study of Mus musculus with 6 samples.

Results

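The Krüppel-like factors (KLFs) examined were *Klf2*, *Klf3*, *Klf4*, *Klf5*, *Klf6*, *Klf7*, *Klf10*, *Klf11*, *Klf13* and *Klf15*. They were taken by gene name from the table of counts per gene, which held all 10 among its 43346 genes, and all 10 had enough counts to be tested. RNA was measured by RNA-seq in 3 control and 3 senescent samples of primary mouse adult fibroblasts (MAFs), which are connective tissue cells, grown here from ear tissue of C57BL6/J females of adult age. X-rays at 20 Gy were followed by 21 further days in culture to obtain senescent cells, and control cells were sham irradiated. Both groups were kept at 3% oxygen, used between passages 3 and 8, and given 100 nM dexamethasone, a glucocorticoid that synchronizes cellular clocks, for 2 hours with collection 12 hours later. No sample without dexamethasone is analysed here, so every level describes cells after a glucocorticoid pulse at a single time. The study reports a longer period and a larger amplitude of the clock genes *Bmal1* and *Per2* in senescent cells. At a single time, a difference in level and a difference in clock phase cannot be told apart. The sources used here do not say whether the 3 samples of a group came from separate mice or cultures, so p-values describe the spread between these samples, which may be technical.

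KLFs are transcription factors that bind GC-rich and CACCC sequences through C2H2 zinc fingers at the carboxyl end of the protein. These fingers are much alike across the family, and the remainder of each protein determines which partners it recruits. KLF2, KLF4, KLF5, KLF6 and KLF7 act mainly as activators and recruit acetyltransferases, although KLF4 can also repress. KLF3 represses through CtBP, and KLF10, KLF11 and KLF13 bind the corepressor SIN3A. KLF15 is a metabolic regulator induced by glucocorticoids. Many KLF genes are rapidly induced by growth factors, mechanical stress or hormones, and several, *Klf10* and *Klf15* among them, are known as outputs of the circadian clock.

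The study behind these data concerns the clock factor BMAL1 and the factor AP-1, so promoters of the KLF genes were inspected for the E-box CACGTG, which BMAL1 binds, and for the AP-1 sites TGAGTCA and TGACTCA. RefSeq promoter windows of 300 bases (250 before and 50 from the transcript start, build GRCm38.p6, the assembly that mm10 names) were matched for 8 of the 10 genes. No window was used for *Klf5* and *Klf10*. The promoters of *Klf2* and *Klf4* are shown because these genes had the largest fall and the largest rise of the family. Capitals mark the E-box in *Klf4* and a match to the consensus of MEF2, a factor known to induce both genes, in *Klf2*.
*Klf2* promoter, chr8:72318812-72319111, plus strand: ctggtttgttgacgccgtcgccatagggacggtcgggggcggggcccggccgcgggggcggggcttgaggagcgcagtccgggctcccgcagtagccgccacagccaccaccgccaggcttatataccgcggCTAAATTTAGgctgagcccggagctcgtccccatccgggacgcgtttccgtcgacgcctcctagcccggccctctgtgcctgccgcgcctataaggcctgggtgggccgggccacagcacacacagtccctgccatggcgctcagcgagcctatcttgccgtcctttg
*Klf4* promoter, chr4:55532426-55532725, minus strand: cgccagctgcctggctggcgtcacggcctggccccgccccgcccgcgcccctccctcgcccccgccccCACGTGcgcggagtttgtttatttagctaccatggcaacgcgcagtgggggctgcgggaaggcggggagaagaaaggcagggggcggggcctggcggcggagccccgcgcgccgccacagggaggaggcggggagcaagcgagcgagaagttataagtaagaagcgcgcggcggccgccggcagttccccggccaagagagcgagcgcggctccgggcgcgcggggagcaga

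E-boxes were found in 4 of the 8 windows (*Klf4*, *Klf6*, *Klf11* and *Klf15*), against 7.15% of the 32851 mouse promoter windows of the same length. Their 30-base surroundings in the other E-box genes are shown because they include both genes that rose and genes that fell, with the E-box in capitals.
*Klf6* E-box, chr13:5861434-5861463, plus strand: ctccaagctggtCACGTGgggggagaaggg
*Klf11* E-box, chr12:24651145-24651174, plus strand: cccggaccaaaaCACGTGccgccgcccgcc
*Klf15* E-box, chr6:90462336-90462365, plus strand: ctcccgaggtccCACGTGgtctgcacttcg
*Klf15* E-box, chr6:90462392-90462421, plus strand: tagaacccgtctCACGTGcgcatcggagga
*Klf15* E-box, chr6:90462561-90462590, plus strand: cgcccgcggcgtCACGTGagcggccggaga

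*Klf15* had 3 E-boxes, which began 228, 172 and 3 bases before its transcript start. Those of *Klf4*, *Klf6* and *Klf11* began 182, 43 and 214 bases before the start. *Klf4* and *Klf6* were higher in senescent cells and *Klf11* and *Klf15* were lower, so the 4 genes with an E-box were divided equally between the directions. AP-1 sites occurred in 0 of the 8 windows and in 5.20% of all windows. The GC-box GGGCGG was present in 8 of 8 windows (35.7% of all windows) and CACCC in 5 of 8 (57.5% of all windows), and the MEF2 consensus in 1 of 8 (3.19% of all windows). Both strands were searched for every motif, and matches of different motifs may overlap. The KLF windows were not compared with windows of like GC content, so the shares over all windows are not a matched background for the E-box. BMAL1 binding at these promoters is not analysed here, and a match describes the letters of a window alone.

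**Figure D1:**
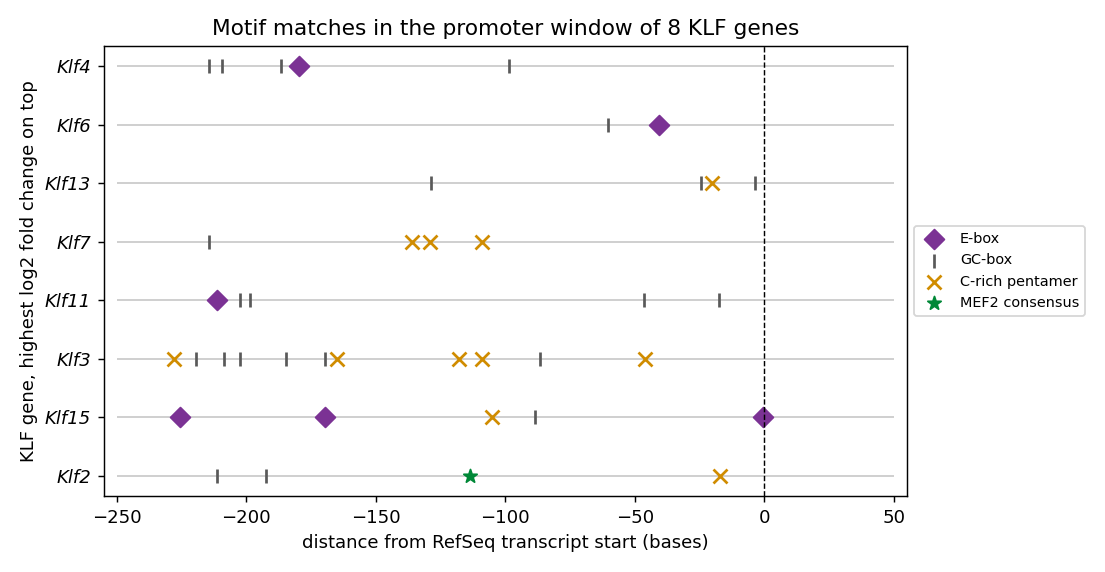
Position of motif matches from the RefSeq transcript start (bases, horizontal axis) in the promoter windows of 8 KLF genes, ordered from the highest log2 fold change on top to the lowest. Diamonds are E-boxes, ticks GC-boxes, crosses CACCC matches and the star the MEF2 consensus in *Klf2*. *Klf15* carries 3 E-boxes and *Klf4*, *Klf6* and *Klf11* carry 1 each.

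In senescent cells, 4 of the 10 KLF genes were higher, 4 were lower and 2 did not pass at an adjusted p of 0.05 (edgeR quasi-likelihood test, Benjamini-Hochberg). This was a common outcome in these cells, as 70.3% of the 17589 tested genes passed that limit (36.2% higher and 34.1% lower). *Klf4*, *Klf6*, *Klf10* and *Klf13* rose, and *Klf2*, *Klf3*, *Klf11* and *Klf15* fell. *Klf4* and *Klf2* also changed more than 2-fold, a limit that with an unadjusted p under 0.05 was passed by 30.1% of all tested genes (17.8% higher and 12.3% lower). The groups did not overlap in any of the 8 genes that passed, and such separation was seen in 75.3% of all tested genes. The median log2 fold change of the 10 genes was 0.03, beside 0.01 over all tested genes. In bulk RNA, fewer cells expressing a gene and less RNA per cell cannot be told apart.

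Levels are given as CPM, the counts of a gene relative to the library total, scaled by TMM, which corrects for library size and composition.

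**Figure D2:**
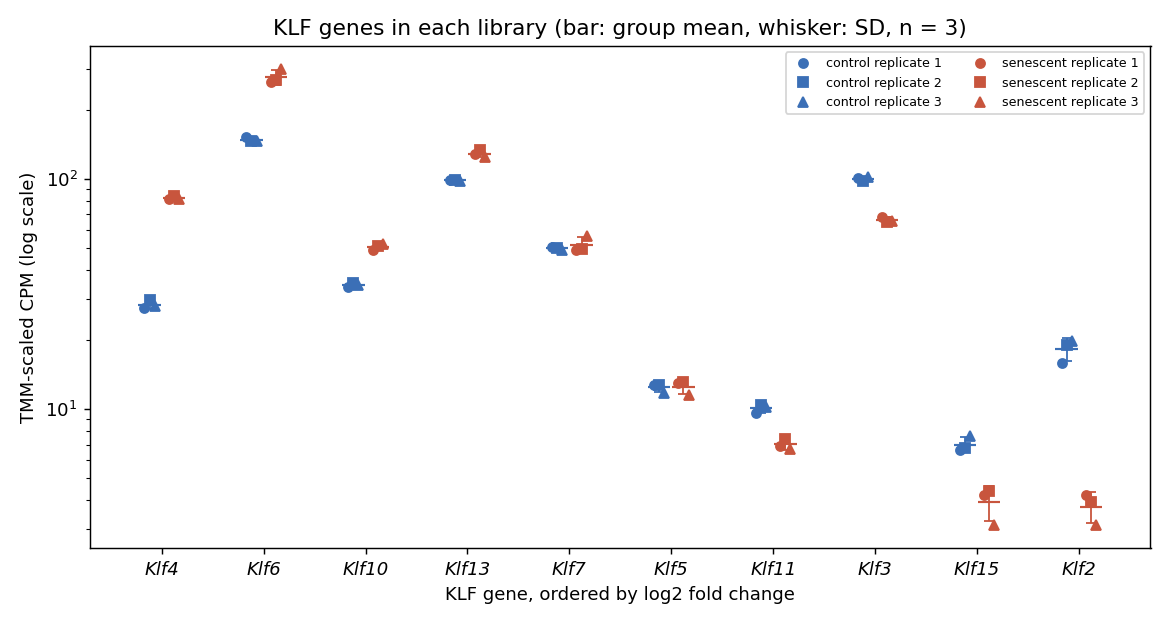
Level of each KLF gene in each of the 6 libraries, in TMM-scaled CPM on a log scale. Genes are ordered by log2 fold change, points are libraries, bars are group means and whiskers the SD of 3 samples. Control (blue) and senescent (red) libraries separate fully for all genes other than *Klf7* and *Klf5*.

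*Klf4* (chromosome 4 of mm10 from 55527143 to 55532466) encodes an activator and repressor known for its role in pluripotency and in the skin barrier. It was at 27.3, 29.8 and 28.0 CPM in control replicates 1, 2 and 3 and at 81.5, 84.1 and 81.8 CPM in senescent replicates 1, 2 and 3. The lowest senescent library thus lay far above the highest control library, and the spread within groups was small. The means were 28.4 ± 1.29 and 82.5 ± 1.42 CPM (SD, n = 3 per group), a 2.91-fold rise (log2 fold change 1.54, standard error 0.06, adjusted p = 2.60e-07, edgeR quasi-likelihood test).

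*Klf2* (chromosome 8 from 72319033 to 72321656), the close relative of *Klf4* that is induced by fluid flow in endothelium and maintains quiescence in T cells, moved the other way. Control replicates 1, 2 and 3 had 15.8, 18.9 and 19.8 CPM, and senescent replicates 1, 2 and 3 had 4.24, 3.92 and 3.12 CPM. Its fall exceeded the spread in both groups, with means of 18.2 ± 2.07 and 3.76 ± 0.580 CPM (SD, n = 3 per group). Senescent cells had a 4.85-fold lower level (log2 fold change -2.28, standard error 0.14, adjusted p = 3.68e-06, edgeR quasi-likelihood test). Per length of exon, the *Klf4* to *Klf2* ratio was 1.05, 0.958 and 0.856 in control replicates 1, 2 and 3 and 11.6, 13.0 and 15.9 in senescent replicates 1, 2 and 3. The genes were thus at nearly equal levels in every control library and more than 11-fold apart in every senescent library, a ratio that does not depend on how libraries were scaled.

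*Klf6* (chromosome 13 from 5861489 to 5870393), a gene induced by tissue injury whose product activates genes of the TGF-β pathway, rose in senescent cells. Its values were 151, 146 and 146 CPM in control replicates 1, 2 and 3 and 263, 269 and 301 CPM in senescent replicates 1, 2 and 3. Senescent replicate 3 was the highest, and all senescent libraries exceeded all control libraries. The rise was 1.88-fold (log2 fold change 0.91, standard error 0.07, adjusted p = 9.59e-06, edgeR quasi-likelihood test). *Klf6* therefore fell short of a 2-fold change, and without senescent replicate 3 its log2 fold change was 0.85.

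*Klf7* and *Klf5*, the remaining activators, showed no difference that exceeded the spread. *Klf7* (chromosome 1 from 64029447 to 64122282), studied mostly in neurons, was at 50.6, 49.99 and 49.3 CPM in control replicates 1, 2 and 3 and at 49.3, 49.5 and 56.4 CPM in senescent replicates 1, 2 and 3. Only senescent replicate 3 stood above the control range, and the groups overlapped. The log2 fold change of 0.05 had a 95% interval from -0.11 to 0.21 (adjusted p = 0.540, edgeR quasi-likelihood test). *Klf5* (chromosome 14 from 99298691 to 99313405), a driver of growth in intestinal epithelium and smooth muscle, was at 12.7, 12.8 and 11.7 CPM in control and 12.9, 13.0 and 11.5 CPM in senescent replicates 1, 2 and 3. The values of the groups were interleaved. Its log2 fold change was 0.01 with a 95% interval from -0.19 to 0.21 (adjusted p = 0.917, edgeR quasi-likelihood test), and differences within these bounds were not detectable in either direction.

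The repressor genes were likewise split. *Klf3* (chromosome 5 from 64803523 to 64830129), which encodes the CtBP-binding repressor, fell from 101, 97.4 and 101 CPM in control replicates 1, 2 and 3 to 68.3, 65.2 and 65.7 CPM in senescent replicates 1, 2 and 3. Each senescent library was below each control library. The level was 1.504-fold lower (log2 fold change -0.59, standard error 0.05, adjusted p = 2.83e-05, edgeR quasi-likelihood test).

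*Klf10* and *Klf11*, both first described as early genes of the TGF-β response, changed in opposite directions. *Klf10* (chromosome 15 from 38294413 to 38300707) was at 33.9, 35.4 and 34.6 CPM in control replicates 1, 2 and 3 and at 49.1, 51.0 and 52.3 CPM in senescent replicates 1, 2 and 3. All senescent libraries were higher, by 1.47-fold on average (log2 fold change 0.55, standard error 0.06, adjusted p = 6.66e-05, edgeR quasi-likelihood test). *Klf11* (chromosome 12 from 24651371 to 24662774) was at 9.56, 10.4 and 10.2 CPM in control replicates 1, 2 and 3 and at 6.91, 7.43 and 6.69 CPM in senescent replicates 1, 2 and 3. Here all senescent libraries were lower, by 1.43-fold on average (log2 fold change -0.52, standard error 0.08, adjusted p = 0.000764, edgeR quasi-likelihood test). The *Klf10* to *Klf11* ratio per length was 4.79 ± 0.121 in control and 10.1 ± 0.686 in senescent cells (SD, n = 3 per group), without overlap.

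*Klf13* (chromosome 7 from 63886347 to 63938915), the third SIN3A-binding factor and an activator of the chemokine gene *Ccl5* in T cells, had the smallest change among the genes that passed. Its levels were 99.3, 99.2 and 98.0 CPM in control and 129, 133 and 124 CPM in senescent replicates 1, 2 and 3. Control libraries were nearly identical and all senescent libraries were above them, a 1.30-fold difference (log2 fold change 0.38, standard error 0.05, adjusted p = 0.000340, edgeR quasi-likelihood test).

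*Klf15* (chromosome 6 from 90462576 to 90475238), which controls amino acid breakdown and is induced directly by the glucocorticoid receptor, fell in senescent cells. It had 6.64, 6.74 and 7.60 CPM in control replicates 1, 2 and 3 and 4.24, 4.404 and 3.14 CPM in senescent replicates 1, 2 and 3. Senescent replicate 3 was the lowest library, and the groups did not overlap. Levels were 1.79-fold lower on average (log2 fold change -0.84, standard error 0.14, adjusted p = 0.00107, edgeR quasi-likelihood test), and without senescent replicate 3 the log2 fold change was -0.68.

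**Figure D3:**
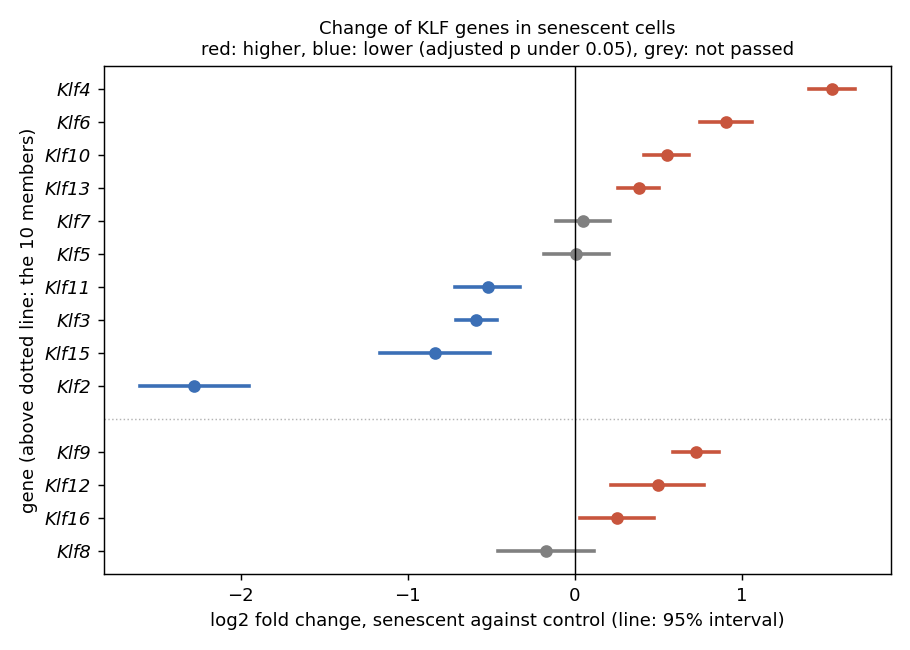
Log2 fold change of senescent against control cells for the 10 KLF genes and, below the dotted line, for 4 other tested KLF genes. Points are estimates from edgeR's quasi-likelihood fit and lines their 95% intervals. *Klf4* lies farthest to the right at 1.54 and *Klf2* farthest to the left at -2.28, and the intervals of *Klf7*, *Klf5* and *Klf8* include 0.

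Levels of different genes were compared after division by exon length as listed beside the counts (RPKM, computed here from TMM-scaled CPM). With these lengths, the highest control levels were those of *Klf3* at 40.3 ± 0.865 RPKM and *Klf6* at 35.1 ± 0.669 RPKM (SD, n = 3), an order that depends on the length taken for *Klf3*. *Klf13*, *Klf10*, *Klf2*, *Klf4*, *Klf5* and *Klf7* followed between 13.1 and 6.15 RPKM, and *Klf15* and *Klf11* were lowest at 2.77 and 2.38 RPKM. Only the neighbours *Klf2* and *Klf4* overlapped in this order. In senescent cells *Klf6* led at 65.8 ± 4.86 RPKM, ahead of *Klf4* at 27.0 ± 0.465 and *Klf3* at 26.8 ± 0.686 RPKM, of which the last 2 overlapped. *Klf13* and *Klf10* (17.1 and 16.7 RPKM) overlapped as well, as did *Klf5* and *Klf7* (7.26 and 6.36 RPKM), *Klf2* and *Klf11* (2.04 and 1.66 RPKM), and *Klf11* and *Klf15* (1.66 and 1.55 RPKM). *Klf4* thus moved from rank 6 to rank 2 of the 10 and *Klf2* from rank 5 to rank 8.

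The place of *Klf3* in these orders rests on the listed exon lengths. Its listed length was 2479 bases, beside 11243 bases for the merged exons of the GENCODE M21 annotation, and the lengths of *Klf5* were 1721 and 5201 and those of *Klf10* 3045 and 4179 bases. For the other 7 genes, the lengths differed by a factor of at most 1.104. In the GENCODE M21 annotation, *Klf3*, *Klf5* and *Klf10* reach 2772, 1631 and 2950 bases farther at the 3′ end than the gene models in the table of counts. Reads were not recounted over the M21 exons, so reads outside the listed models are missing from the levels with M21 lengths. Those levels and ranks may therefore be too low for *Klf3*, *Klf5* and *Klf10*. With the M21 lengths, an alternative chosen after seeing the data, *Klf3* was at 8.88 ± 0.191 RPKM in control and 5.90 ± 0.151 RPKM in senescent cells (SD, n = 3 per group), which placed it at rank 5 and rank 6, and *Klf6* led in both groups. *Klf5* was at 2.38 and 2.40 RPKM. *Klf4* then moved from rank 4 to rank 2 and *Klf2* from rank 3 to rank 8. Differences between the groups for 1 gene do not use the length, and the lengths of *Klf2* and *Klf4* were equal in both sources. For *Klf3*, *Klf5* and *Klf10*, these differences cover only reads within the listed models. Whether reads beyond those models would change them was not tested.

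With the listed lengths, the summed level of the 10 genes was 137, 138 and 138 RPKM in control replicates 1, 2 and 3 and 169, 171 and 177 RPKM in senescent replicates 1, 2 and 3. *Klf6* made up 25.5 ± 0.601% of this sum in control and 38.2 ± 1.97% in senescent cells (SD, n = 3 per group). *Klf3* made up 29.3 ± 0.614% and 15.6 ± 0.678%, *Klf4* 6.77 ± 0.303% and 15.7 ± 0.455%, and *Klf2* 7.15 ± 0.783% and 1.19 ± 0.207%. For each of these 4 genes, the shares of the groups did not overlap. The share of *Klf13* remained near 10%, at 9.54 ± 0.112% in control and 9.93 ± 0.510% in senescent cells, with overlap. These shares move with the lengths, and the shares with M21 lengths use the same counts, which were not redone over the M21 exons. With the M21 lengths, *Klf3* made up 9.20 ± 0.242% in control and 4.25 ± 0.219% in senescent cells, *Klf6* 34.9 ± 0.986% and 45.4 ± 2.01%, and *Klf13* 13.6 ± 0.190% and 12.3 ± 0.703% (SD, n = 3 per group), so the share of *Klf3* was lower and that of *Klf6* higher in senescent cells with either length.

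**Figure D4:**
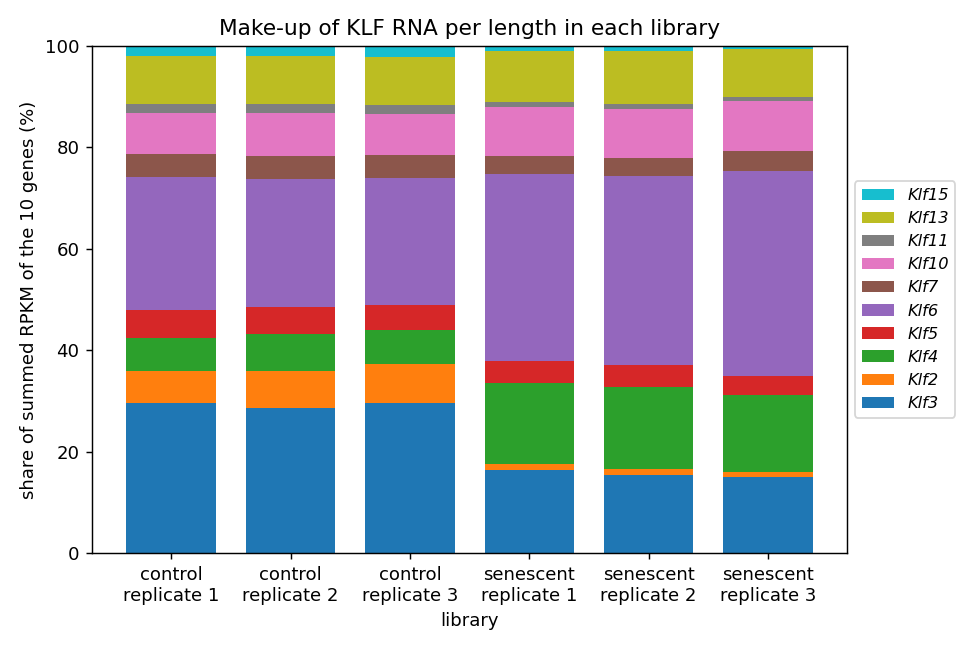
Share of each KLF gene in the summed RPKM of the 10 genes (vertical axis, %) in each of the 6 libraries, with the exon lengths listed beside the counts. The bars add up to 100% by construction. *Klf3* holds 28.6% to 29.7% in control and 15.0% to 16.3% in senescent libraries, while *Klf6* grows from at most 26.2% to at least 36.9%.

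Beyond these 10 genes, the family has further members, of which *Klf8*, *Klf9*, *Klf12* and *Klf16* were tested. *Klf9*, which is induced by glucocorticoids and belongs with *Klf10*, *Klf11* and *Klf13* to the SIN3A-binding factors, rose from 32.8 ± 0.294 to 54.2 ± 2.28 CPM (SD, n = 3 per group, log2 fold change 0.73, adjusted p = 1.59e-05, edgeR quasi-likelihood test). *Klf12*, a relative of *Klf3*, and *Klf16* rose as well, with log2 fold changes of 0.50 and 0.25 (adjusted p = 0.00631 and 0.0449, same edgeR test). The call of *Klf16* was lost in 6 of 14 alternatives, without any 1 of control replicates 1, 2 and 3 or senescent replicates 1 and 2 and without a filter on low counts, with an adjusted p of up to 0.174 and a log2 fold change of at least 0.18. *Klf8*, the other relative of *Klf3*, was at 3.30 ± 0.261 and 2.92 ± 0.342 CPM (adjusted p = 0.245, same edgeR test). The erythroid gene *Klf1* had 4 to 8 counts per library, and *Klf14* and *Klf17* had 0 counts in all control libraries and at most 4 in a senescent library, and these 3 were not tested.

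The SP factors bind the same GC-boxes as the KLFs. Of the 9 SP genes, 7 were tested, 2 were higher and 4 lower (median log2 fold change -0.52), beside 36.2% higher and 34.1% lower over all tested genes. *Sp1*, the founding member of the family, fell from 144 ± 6.92 to 100.4 ± 9.60 CPM (SD, n = 3 per group, adjusted p = 0.000593, edgeR quasi-likelihood test). *Sp4* and the osteoblast factor *Sp7* fell by 0.91 and 0.86 on the log2 scale. *Sp6*, known for its part in tooth and skin development, rose from 0.387 ± 0.0579 to 2.27 ± 0.224 CPM. For *Sp9*, between 0 and 1 counts were found in a control library and between 33 and 66 in a senescent library.

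Cofactors are the proteins through which KLFs activate or repress. Of 11 cofactor genes tested, 1 was higher, 6 lower and 4 did not pass, with a median log2 fold change of -0.19. The shares over all tested genes were 36.2% higher and 34.1% lower. The deacetylase gene *Hdac1* fell from 135 ± 1.94 to 71.8 ± 0.871 CPM (SD, n = 3 per group, log2 fold change -0.92, adjusted p = 1.78e-06, edgeR quasi-likelihood test). The acetyltransferase gene *Kat2b* fell by 1.38 on the log2 scale and the deacetylase gene *Hdac3* by 0.47. *Fhl3*, whose LIM protein binds KLF3, rose by 0.85 on the log2 scale, while *Klf3* itself fell.

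Among 9 genes that act on KLFs, 4 were higher and 3 lower (median log2 fold change 0.14), beside 36.2% and 34.1% of all tested genes. The kinases of the ERK5 cascade, which induces *Klf2* and *Klf4* through MEF2 factors, were lower at all 3 steps measured: *Map3k3*, *Map2k5* and *Mapk7* had log2 fold changes of -0.51, -0.23 and -0.62 (adjusted p = 7.12e-05, 0.0434 and 0.00535, edgeR quasi-likelihood test). The call of *Map2k5* was lost in 9 of 14 alternatives, among them RLE scaling, library size alone, the replicate block (adjusted p = 0.0833, edgeR) and leaving out any control library or senescent replicate 2, with an adjusted p of up to 0.158. *Mef2a* rose from 39.7 ± 2.31 to 114 ± 11.03 CPM (SD, n = 3 per group, log2 fold change 1.52), whereas *Mef2c* and *Mef2d*, with log2 fold changes of -0.14 and 0.14, did not pass. Without senescent replicate 3, both passed (log2 fold changes of -0.29 and 0.21), and *Mef2d* also passed with library size alone (0.22) and with at least 10 counts in every library (0.19). The genes of ubiquitin ligases that target KLF proteins, *Wwp1* and *Fbxw7*, were higher by 0.85 and 0.68 on the log2 scale. The part of any of these genes in the KLF levels was not tested.

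Textbook KLF targets were tested for 22 of 23 genes, of which 17 were higher, 3 lower and 2 did not pass (median log2 fold change 0.80). For comparison, 36.2% of all tested genes passed in the higher direction and 34.1% in the lower. The median log2 fold change over all tested genes was 0.01. Targets that KLFs activate and targets that they repress were pooled in this list, so its counts and median do not measure KLF activity. *Thbd*, the thrombomodulin gene that KLF2 and KLF4 activate in endothelium, rose from 28.1 ± 0.710 to 286 ± 10.0 CPM (SD, n = 3 per group, log2 fold change 3.35, adjusted p = 1.24e-08, edgeR quasi-likelihood test). Of its 2 activators, *Klf4* rose and *Klf2* fell. The cell cycle inhibitor gene *Cdkn1a*, a target of KLF4 and KLF6, rose by 2.33 on the log2 scale. *Ccn2*, which KLF15 represses in heart, rose by 1.95. *Bcat2*, an enzyme gene of branched-chain amino acid breakdown that KLF15 activates, fell by 1.09, and *Prodh*, another KLF15 target, rose by 0.61. *Col1a1*, which KLF6 activates in liver, fell by 2.54 on the log2 scale while *Klf6* rose. The other genes listed as KLF6 targets rose as *Klf6* did: *Tgfb1* by 0.80, *Tgfbr1* by 0.81, *Eng* by 1.05 and *Plau* by 0.77. *Myh10*, a KLF5 target in smooth muscle, fell by 0.42, whereas the KLF5 targets *Ccnd1* and *Pdgfa* rose by 1.87 and 0.84. Each of these genes has many other regulators, and no KLF was perturbed in these cells.

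Since every sample had received dexamethasone, 8 genes known to respond to glucocorticoids were set beside *Klf15* and *Klf9*, which is itself 1 of the 8. All 8 passed, 4 higher and 4 lower (median log2 fold change 0.15), as did 70.3% of all tested genes (36.2% higher and 34.1% lower). *Fkbp5*, *Per1* and *Zbtb16* fell, with log2 fold changes of -1.64, -1.11 and -1.49, in the same direction as *Klf15*. *Dusp1*, *Errfi1* and *Sgk1* rose, as *Klf9* did, with log2 fold changes of 1.96, 1.76 and 0.99. The gene of the glucocorticoid receptor, *Nr3c1*, rose from 144 ± 7.65 to 204 ± 22.6 CPM (SD, n = 3 per group, adjusted p = 0.00111, edgeR quasi-likelihood test).

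**Figure D5:**
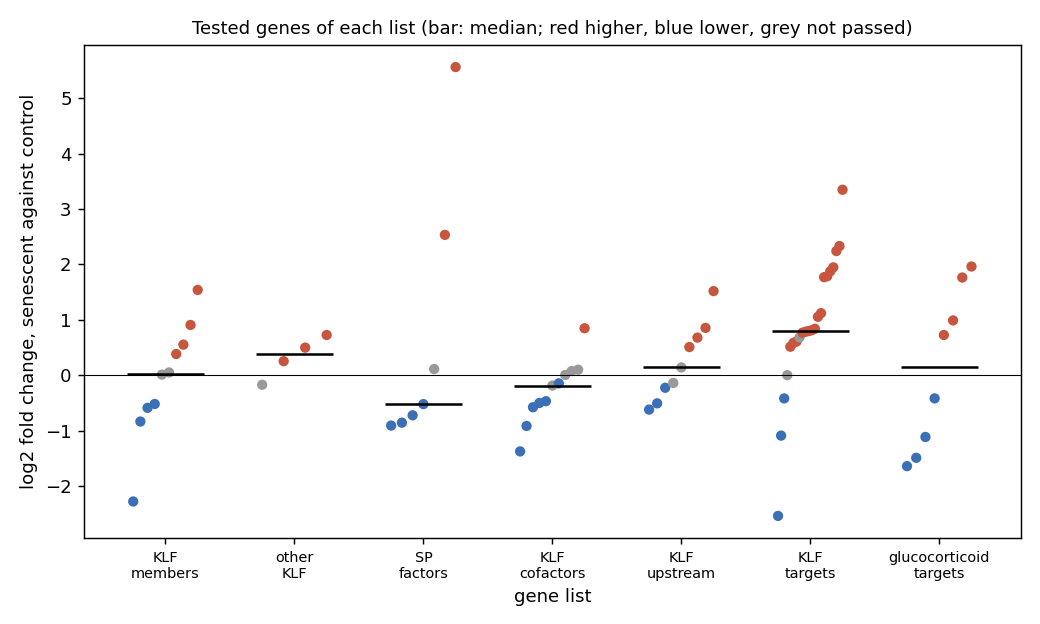
Log2 fold change of senescent against control cells for the tested genes of each list (points) with the list's median (bar). Red points are higher and blue points lower at an adjusted p under 0.05, and grey points did not pass. The medians are 0.03 for the 10 KLF genes, 0.38 for the other KLF genes, -0.52 for SP factors, -0.19 for cofactors, 0.14 for upstream genes, 0.80 for KLF targets and 0.15 for glucocorticoid targets.

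Some KLF genes are strongly expressed in other cell types, so marker genes were summed in each library. Counts of markers higher or lower stand beside 36.2% higher and 34.1% lower over all tested genes. The 10 fibroblast markers reached 63760 to 65730 CPM in control and 47960 to 53450 CPM in senescent cells, with 3 genes higher, 5 lower and 2 that did not pass. Most of this sum was *Fn1*, at 45655 ± 414 and 43858 ± 2275 CPM (adjusted p = 0.360, edgeR quasi-likelihood test). *Dcn* rose from 56.6 to 643 CPM and *Thy1* from 107 to 298 CPM, whereas *Col1a1* fell, so these markers did not move as a group. Keratinocyte markers (12 genes, 7 tested) reached 16.6 to 17.2 CPM in control and 35.5 to 36.6 CPM in senescent cells, with 4 genes higher and 1 lower. *Dsp* and *Krt15* rose from 0.11 and 0.0784 CPM to 7.09 and 5.33 CPM and *Ivl* from 0 to 14.0 CPM. *Trp63*, the regulator that defines basal keratinocytes, fell from 13.1 to 4.17 CPM. *Krt5* (1.00 and 1.53 CPM) and *Krt10* (1.95 and 1.94 CPM) did not pass (adjusted p = 0.0925 and 0.965, edgeR quasi-likelihood test). *Krt14*, at 0.0772 and 0.0883 CPM, was not tested. Most of the keratinocyte sum was thus *Trp63* in control cells and *Ivl*, *Dsp* and *Krt15* in senescent cells. Endothelial markers (8 genes, 5 tested, 5 higher) rose in sum from at most 2.96 to at least 8.30 CPM, and macrophage markers (8 genes, 7 tested, 7 higher) from at most 9.40 to at least 19.8 CPM. Chondrocyte markers (7 genes, 6 tested, 6 lower) fell from 6690 to 7194 CPM in control to 594 to 679.5 CPM in senescent cells. *Ivl* and *Cldn5* were at 0 in all control libraries, and no marker was at 0 in all 6 libraries. Keratinocyte, endothelial and macrophage sums thus rose, and fibroblast and chondrocyte sums were lower, while 4 of the 10 KLF genes rose and 4 fell. *Klf2*, described above for endothelium, fell while the endothelial sum rose. The part of any of these cell types in the KLF results was not tested.

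Total counts lay between 50288454 and 82229553 per library, and the 10 KLF genes had between 235 and 25390 counts in a library. Senescent replicate 3 differed more from senescent replicates 1 and 2 (root mean square log2 differences of 0.386 and 0.400) than these did from each other (0.258). Without it, the same 8 KLF genes passed with unchanged directions.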

How the data were processed

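Polyadenylated RNA of 3 control and 3 senescent samples was sequenced from stranded libraries, with both ends read over 100 bases. Mapping to mm10 was done by the authors with STAR and counting of genes with Subread in the MAPRSeq pipeline, and the deposited values are raw counts per gene without normalization. The strand setting and the treatment of reads mapping to several places are not given in the sources used here. KLF genes share zinc finger sequence, so a small part of their reads could be ambiguous, and genes overlapping *Klf3*, *Klf7* and *Klf13* on the opposite strand had at most 155 counts over all 6 libraries, against at least 19335 for these KLF genes. *C230096K16Rik*, which overlaps *Klf3* on the same strand in GENCODE M21, has no row among the counts used here, so reads from it and from *Klf3* cannot be told apart.

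Genes were kept by filterByExpr, scaled by TMM and compared with the robust quasi-likelihood test of edgeR 4.0.16 (R 4.3.3), two-sided, with the group as the only term and Benjamini-Hochberg adjustment over 17589 genes. The limits were an adjusted p under 0.05, or an unadjusted p under 0.05 with a fold change over 2 as in the study's methods. The procedure was tested on simulated data. Alternatives were RLE scaling, library size alone, filters, the exact test, DESeq2 1.42.0, the non-robust fit, a replicate block and each library left out, and GENCODE M21 exon lengths were added after seeing the data. A count of 0 allows up to 3 counts, which is at most 0.0613 CPM in a library and covers counting error only. The KLF genes, gene lists and cell type markers were chosen with earlier results of these data known. Named from each list beside the KLF genes were up to 3 genes in each direction with the smallest p. *Sp9* is given by counts, and *Mef2c*, *Mef2d*, *Nr3c1*, *Prodh*, *Ivl*, *Cldn5*, *Fn1*, *Dcn*, *Thy1*, *Dsp*, *Krt15* and *Trp63* were added after their values had been seen. The same holds for *Tgfb1*, *Tgfbr1*, *Eng*, *Plau*, *Ccnd1*, *Pdgfa*, *Krt5*, *Krt10* and *Krt14*. *Ccn2* and *Adgre1* were found under their older symbols.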

Additional observations from a re-analysis of the deposited data

How the results depend on the processing

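Under all 14 alternatives, the same 8 KLF genes passed an adjusted p of 0.05 with the same direction, and *Klf4* and *Klf2* alone passed the 2-fold limit. Across them, *Klf4* lay between 1.51 and 1.62 and *Klf2* between -2.37 and -2.15 on the log2 scale. The sign of *Klf5* and *Klf7*, which did not pass under any alternative, depended on the libraries: with 1 library left out, *Klf5* ranged from -0.033 to 0.075 and *Klf7* from -0.0087 to 0.089. *Klf5* was below 0 without control replicate 3 (-0.033) and without senescent replicate 1 or 2 (-0.0112 and -0.0136), and *Klf7* without senescent replicate 3 (-0.0087). Over all genes, 3483 in place of 5300 passed an unadjusted p of 0.05 with a fold over 2 when at least 10 counts were required in every library, since fewer genes were then tested. Between 46 and 54 genes of the 6 other lists passed with 1 library left out, beside 50 with all. With the replicate number as a block, 8 KLF genes and 11624 of all genes passed, beside 12365 without it. Replicates of equal number did not deviate together (correlations of -0.145, 0.135 and -0.12), so the block was not taken as a pairing, and of the 10 KLF genes and 34 other named genes that were refitted it changed the call of *Map2k5* alone (-0.23, adjusted p = 0.0833, edgeR). Of the 34 genes refitted from the other lists, *Klf16* and *Map2k5* lost their call and *Mef2c* and *Mef2d* gained one under some alternatives, and none changed direction.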
